A study of Mus musculus with 8 samples.

Results

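The mitochondrial ribosome is built from protein subunits encoded in the nucleus. The 78 genes described here are all rows of the deposited mouse expression table whose symbol starts with Mrpl or Mrps, out of 22063 genes listed: 49 Mrpl genes, named for the large subunit, and 29 Mrps genes, named for the small subunit. All 78 passed the filter on low counts and were tested among 10770 genes. The libraries were labelled as liver of wild-type mice on a high-fat, high-cholesterol (HFHC) diet, with 4 control libraries and 4 libraries from mice that also received tranilast, an anti-allergic drug. The diet stands in the design text and not in the sample labels, the control labels name no vehicle, and the sources used here do not tie the sequenced mice to a tranilast dose or say whether each library was 1 mouse. The p-values therefore measure the spread between these libraries, which may be technical in part.

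The mitoribosome translates only the few mRNAs made from mitochondrial DNA, which encode core subunits of the respiratory chain complexes and ATP synthase. The small subunit reads the mRNA and the large subunit joins the amino acids and passes the chain into the inner membrane. Its rRNAs are transcribed in the organelle while every one of its proteins is made in the cytosol and imported, so that the nuclear and mitochondrial genomes must supply the parts together. Liver has abundant mitochondria, and in hepatocytes these proteins serve a large respiratory chain.

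Libraries held 12053036 to 15618787 counts, and the TMM scaling factors were 0.956 to 0.965 in control and 1.04 in all 4 tranilast libraries. The labelled tissue was checked against markers. Of 9 hepatocyte markers, 5 (Serpina1a, Cps1, Fabp1, Ahsg and Tat) were at 0 in every library and no hepatocyte marker exceeded 17 counts, with Alb at 0 to 2, and their summed counts were 0 to 0.000117% of control and 0 to 0.000149% of tranilast libraries. Of 10 macrophage markers, 8 had at least 462 counts in every library and Mrc1 and Mertk at most 3, and their summed counts made up 0.933% to 0.989% of control libraries and 0.909% to 0.969% of tranilast libraries. On the TMM scale all 8 passed the test, in both directions. Under every scaling tried Fcgr1 (log2 fold change, tranilast over control, -1.42 with TMM) and Itgam (-0.28) were called lower and Adgre1 (0.21) and Cd68 (0.16) higher. Ptprc (-0.21), Csf1r (-0.16), Lyz2 (-0.13) and Cd14 (-0.068) were lower with TMM, calls that were lost with FPKM, where Ptprc, Csf1r and Cd14 turned to 0.030, 0.0071 and 0.048. The part of these markers in the differences of the members was not tested. Of 5 Kupffer cell markers, Clec4f, Vsig4 and Timd4 were at 0 in every library. The data thus went against the label of whole liver, and the samples are called here by their group. In bulk RNA a smaller number of cells of a type and less RNA per cell cannot be told apart.

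RefSeq promoter sequences (GRCm38.p6, 250 bases before to 50 after the start) matched 69 of the 78 members. The 250 bases before the start are printed for the 3 members among the 8 with the largest falls whose window held the core letters of a site for ETS factors such as GABP, and for Mrpl10, the member with the largest rise, whose window held the core letters of an NRF1 site. Among the same members, the 250 bases of Mrpl12, Mrps10 and Mrpl24 held none of the 4 kinds of letters searched, those of Mrpl20 held an E-box, and Mrpl21 had the ETS letters only after the start. Mrpl54, also among the 8, was 1 of the 9 members without a matched promoter and was not searched. Capitals mark these letters, CCGGAAG for ETS factors and GCATGCG for NRF1, on either strand; in Mrpl10 the NRF1 letters were read on both strands at 1 overlapping place. Mrpl53 lay at chr6:83108858-83109107 on the + strand, Mrpl18 at chr17:12916092-12916341 on the - strand, Mrpl51 at chr6:125191950-125192199 on the + strand and Mrpl10 at chr11:97041332-97041581 on the + strand. These starts differ from the gene ends in GENCODE M21. There the windows of Mrpl18 (gene 12911349 to 12916345) and Mrpl51 (125191801 to 125196269) lie inside the gene. Those of Mrpl53 (gene from 83109040) and Mrpl10 (from 97041560) reach into it.
Mrpl53: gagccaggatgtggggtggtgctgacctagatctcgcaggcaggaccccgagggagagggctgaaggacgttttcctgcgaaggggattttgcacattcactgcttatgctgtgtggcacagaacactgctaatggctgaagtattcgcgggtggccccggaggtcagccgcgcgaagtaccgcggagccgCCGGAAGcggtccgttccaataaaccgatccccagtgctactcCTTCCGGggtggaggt
Mrpl18: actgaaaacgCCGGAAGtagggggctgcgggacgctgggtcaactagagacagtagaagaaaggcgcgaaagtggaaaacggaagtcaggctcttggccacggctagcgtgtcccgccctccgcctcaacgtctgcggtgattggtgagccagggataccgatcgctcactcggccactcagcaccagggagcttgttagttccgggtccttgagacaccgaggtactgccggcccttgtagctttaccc
Mrpl51: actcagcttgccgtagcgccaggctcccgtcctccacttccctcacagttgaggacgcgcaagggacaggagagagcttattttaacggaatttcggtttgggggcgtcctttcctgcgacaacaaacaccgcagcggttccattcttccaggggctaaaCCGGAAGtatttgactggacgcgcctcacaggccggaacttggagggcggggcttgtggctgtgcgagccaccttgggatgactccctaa
Mrpl10: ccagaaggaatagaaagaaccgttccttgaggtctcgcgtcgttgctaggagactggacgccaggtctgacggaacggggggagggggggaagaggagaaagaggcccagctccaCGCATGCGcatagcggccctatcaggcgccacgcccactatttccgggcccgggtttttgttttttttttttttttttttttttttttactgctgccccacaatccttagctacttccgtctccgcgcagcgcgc

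The letters searched were chosen after a first look at these promoters and at the members' values, in which other motifs and longer forms were also counted. The ETS letters stood in 34.7% of the 75 member promoters and in 8.86% of all 32851 promoters of the same length. These 32851 promoters were not limited to the 10770 genes tested, so the shares do not set members against other expressed genes. The NRF1 letters stood in 10.7% against 3.58%, the YY1 letters AAGATGG in 17.3% against 6.34%, and the E-box CACGTG, read by Myc and other factors, in 9.33% against 7.15%. Of the 26 members with the ETS letters, 10 were called lower and 0 higher. Of the 43 matched members without them, 14 were called lower and 3 higher. Of all 78 members 38.5% were called lower and 3.85% higher, and of all genes tested 28.8% and 28.2%. The median log2 fold change, tranilast over control, was -0.11 with the ETS letters and -0.071 without them, and the difference was not tested. These are matches of letters and not binding sites.

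On the TMM scale, more mitoribosomal genes were lower than higher with tranilast. In edgeR's quasi-likelihood test, 30 of 78 members (38.5%) fell, against 28.8% of all genes tested, and 3 members (3.85%) rose, against 28.2% of all genes. Together 33 members passed the test (42.3%), a smaller share than the 57.0% of all genes. The changes were small. The median log2 fold change, tranilast over control, was -0.098 over the members and 0.0085 over all genes, the range ran from -0.53 to 0.39, and 1 member lay beyond 0.5 in either direction. The groups did not overlap for 27 of the 78 members, against 49.8% of all genes. Tranilast lay below control in 25 of these members, against 25.2% of all genes, and above in 2, against 24.5% of all genes.

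**Figure D1:**
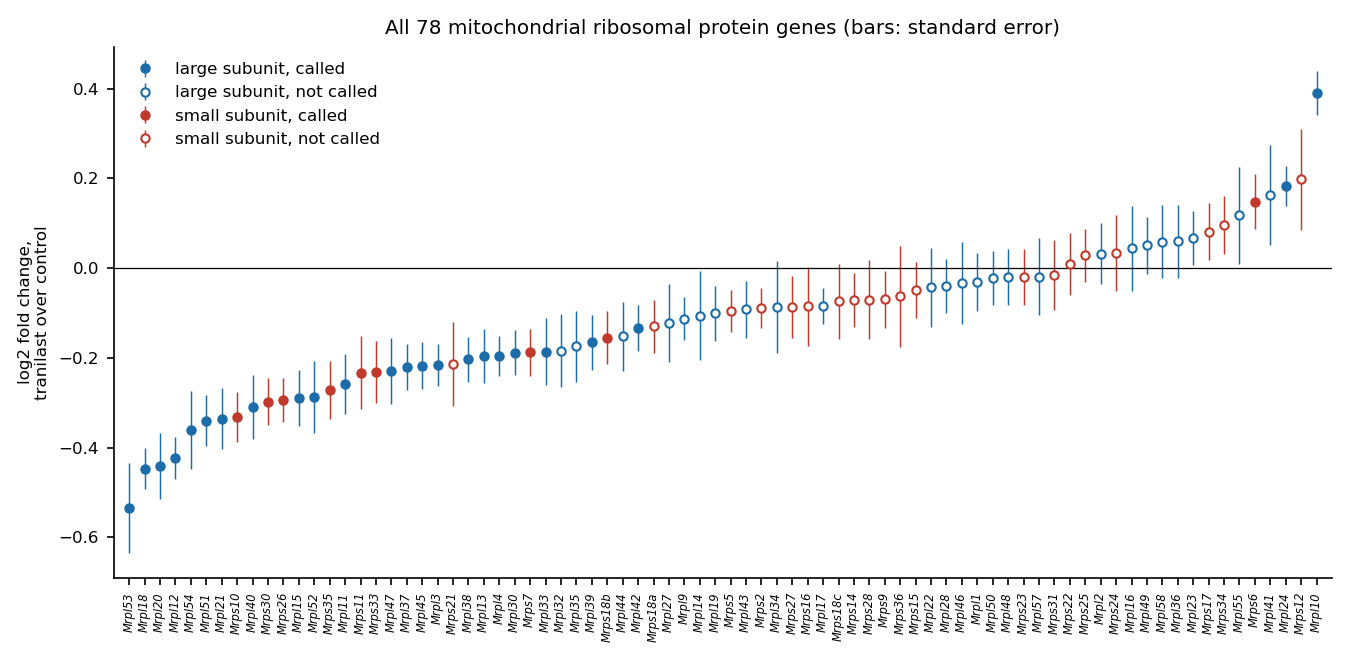
Each point is the log2 fold change, tranilast over control, of 1 of the 78 members, with its standard error, in order from the lowest to the highest; colour gives the subunit by symbol and filled points passed the test. Values run from -0.53 for Mrpl53 to 0.39 for Mrpl10, with 30 filled points below 0 and 3 above.

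Scaling decided part of this count. With library size alone the median of all genes was 0.12 on the log2 scale, and 10 members were called higher and 13 lower. With deposited FPKM (1 added) it was 0.10, with 8 higher and 11 lower. With upper-quartile factors 4 were higher and 21 lower. Of all calls, 49.5% were higher with TMM, 62.6% with upper-quartile factors and 70.9% with library size alone. Relative to the median of all genes, the large-subunit median was -0.14 and the small-subunit median -0.083 with TMM; a change of scaling factors moves all genes nearly alike and so cannot move these values by much. They were -0.14 and -0.046 with GC and length trends removed and -0.17 and -0.11 with no filter on low counts. Under the reported fit and 19 alternatives at the same threshold, 10 members were called lower every time. These were Mrpl53, Mrpl18, Mrpl20, Mrpl12, Mrpl54, Mrpl51, Mrpl21, Mrps10, Mrps30 and Mrps26. In the same fits 2 members were called higher every time (Mrpl10 and Mrpl24), and no member was called in both directions. The share of all genes called the same way every time was not counted, so these counts cannot be set against other genes.

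**Figure D2:**
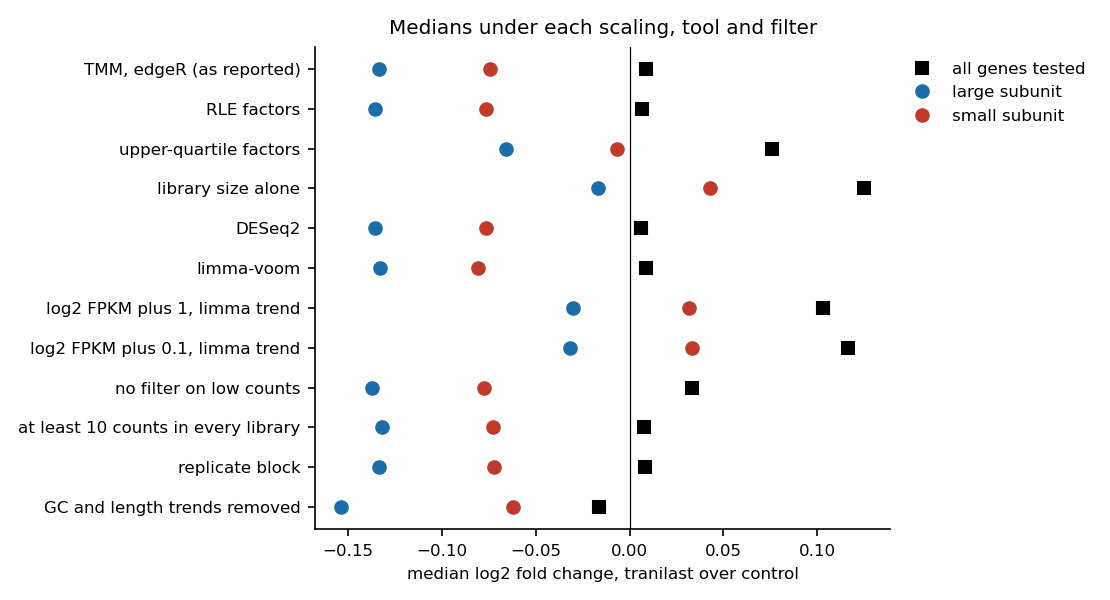
Median log2 fold change, tranilast over control, of all genes tested (squares), the large subunit and the small subunit (circles) under 12 scalings, tools and filters. The large-subunit median stays below 0 throughout, the small-subunit median lies above 0 with library size alone and with FPKM, and both lie left of the median of all genes in every row.

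The largest falls were in proteins of the large subunit. Mrpl53 encodes mL53, a mitochondria-specific protein of the large subunit. Its level in the control libraries was 19.99, 20.9, 24.1 and 18.6 CPM (counts divided by the library size after TMM scaling, in units of 1e+06), and in the tranilast libraries 16.05, 13.7, 12.4 and 15.5 CPM. The groups did not overlap, with all tranilast values the lower ones, and the level was 31.0% lower, from 20.9 ± 2.31 to 14.4 ± 1.68 CPM (SD, n = 4 each). The log2 fold change was -0.53 (SE 0.101, adjusted p = 0.00019). Of its annotated exon bases 88.0% were shared with Gm42688, a gene on the same strand that differed by 0.17 on the log2 scale (adjusted p = 0.301), so the split of reads between both is uncertain.

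Mrpl18 encodes uL18m, which in the cytosolic and bacterial ribosome carries the 5S rRNA into the central protuberance. Control libraries held 75.7, 77.7, 72.4 and 77.4 CPM and tranilast libraries 53.0, 57.3, 54.9 and 57.2 CPM. The groups were separated by a wide gap, and the log2 fold change was -0.45 (SE 0.0454, adjusted p = 1.5e-07). The chaperonin gene Tcp1 shares 10.1% of the exon bases of Mrpl18 on the opposite strand, was more abundant and fell by a like amount, -0.46 on the log2 scale (adjusted p = 4.7e-11), and without strand reads in the shared bases cannot be told apart.

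Mrpl20 encodes bL20m, an rRNA-binding protein needed early in large-subunit assembly. Its control values were 48.6, 56.0, 45.2 and 43.7 CPM against 37.6, 32.7, 34.3 and 37.8 CPM with tranilast. The groups did not overlap although the controls were spread, and the log2 fold change was -0.44 (SE 0.0735, adjusted p = 5.6e-05).

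Mrpl12 encodes bL12m, the flexible stalk protein that recruits translation factors and is also reported to bind the mitochondrial RNA polymerase. It was among the most abundant members by count, at 102.7, 103.3, 101.2 and 104.6 CPM in control libraries and 70.9, 82.7, 80.5 and 73.3 CPM in tranilast libraries. The control libraries were nearly equal, the tranilast libraries were all lower, and the log2 fold change was -0.42 (SE 0.0476, adjusted p = 5.6e-07).

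The stalk is anchored by Mrpl10 (uL10m), and Mrpl10 moved the opposite way. Control libraries held 48.0, 48.2, 51.3 and 50.9 CPM and tranilast libraries 67.0, 65.4, 61.0 and 66.6 CPM. All 4 tranilast libraries were above all 4 control libraries, a 31.1% higher level (log2 fold change 0.39, SE 0.0484, adjusted p = 1.8e-06). Mrpl11 (uL11m), the third protein of the stalk base, fell with Mrpl12 (log2 fold change -0.26, adjusted p = 0.00277). Of these 3 stalk genes, then, 2 fell and 1 rose, where 28.8% of all genes fell and 28.2% rose. The fall of Mrpl12 and the rise of Mrpl10 held under every scaling tried. The call of Mrpl11 was lost with library size alone (adjusted p = 0.071) and with FPKM.

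**Figure D3:**
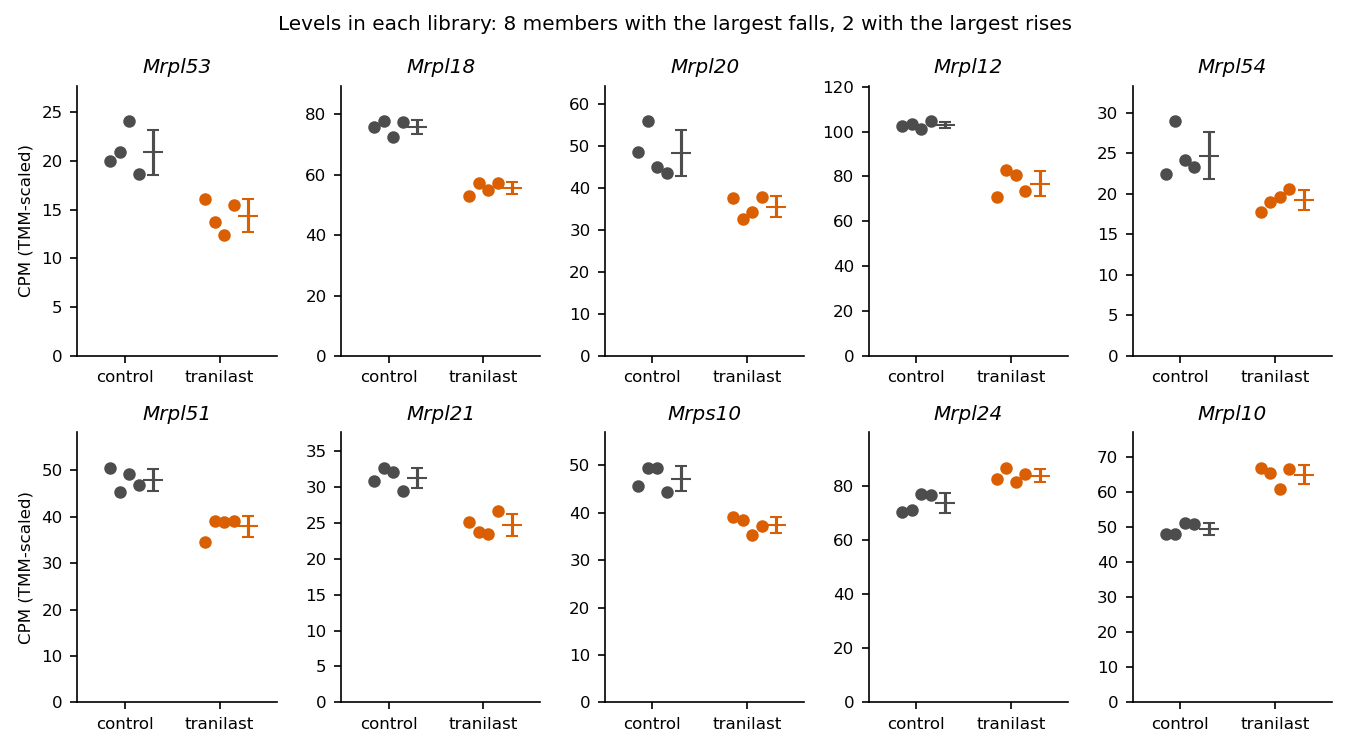
Level of the 8 members with the largest falls and the 2 with the largest rises, in CPM scaled by TMM with each axis from 0. Points are libraries and the bars give the mean ± SD of 4 libraries. In all 10 panels the groups do not overlap; Mrpl10 goes from 49.6 to 65.0 CPM while Mrpl12 goes from 103.0 to 76.8 CPM.

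The other members of the leading 8 followed closely. Mrpl54 (mL54) was at 22.4, 29.0, 24.2 and 23.3 CPM in control and 17.8, 19.0, 19.6 and 20.6 CPM in tranilast libraries (log2 fold change -0.36, SE 0.0872). Mrpl51 (mL51) was at 50.6, 45.4, 49.2 and 46.8 against 34.7, 39.0, 38.9 and 39.1 CPM (-0.34, SE 0.0565). Both are proteins that bacteria lack, and both fell in every tranilast library relative to every control. Mrpl21 (bL21m), an rRNA-binding protein, was at 30.8, 32.7, 32.0 and 29.4 against 25.1, 23.7, 23.4 and 26.7 CPM (-0.34, SE 0.0674). Mrps10 (uS10m), in the head of the small subunit, was the only small-subunit gene among the 8, at 45.7, 49.5, 49.4 and 44.3 against 39.1, 38.4, 35.3 and 37.3 CPM (-0.33, SE 0.0558). Adjusted p-values of these 4 genes lay between 5.3e-05 and 0.00179, and the groups did not overlap for any of them.

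Besides Mrpl10, Mrpl24 and Mrps6 rose. Mrpl24 encodes uL24m, an early-binding protein near the end of the peptide tunnel. It was at 70.3, 71.1, 77.2 and 76.7 CPM in control and 82.5, 86.8, 81.5 and 84.6 CPM in tranilast libraries, without overlap (log2 fold change 0.18, SE 0.0447, adjusted p = 0.00186). Of its exon bases 26.3% were shared with Rrnad1 on the opposite strand, which had a log2 fold change of -0.066 (adjusted p = 0.514). Mrps6 (bS6m, on the small-subunit platform), named outside the rule for named genes, was at 44.8, 53.9, 45.3 and 49.7 against 57.4, 51.4, 51.9 and 53.8 CPM. Its groups overlapped, its adjusted p was 0.0459, and the call was lost without control replicate 1, 3 or 4 or tranilast replicate 1 or 4 (adjusted p 0.051 to 0.147) and with DESeq2 (0.057). Of the exon bases of Mrps6, 10.4% were shared with Slc5a3 and 19.9% with Gm49711, both on the same strand. Slc5a3 was more abundant, at a mean of 124.7 CPM, with a log2 fold change of -0.027, and Gm49711 was at 0.030 CPM.

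The large-subunit median was lower than the small-subunit median. Of 49 large-subunit genes, 22 fell (44.9%), 2 rose and 25 did not pass the test, with a median log2 fold change of -0.13. Of 29 small-subunit genes, 8 fell (27.6%, near the 28.8% of all genes), 1 rose (3.45%, against 28.2% of all genes) and 20 did not pass, with a median of -0.074, which turned to 0.043 with library size alone and to 0.032 or 0.033 with FPKM. The medians differed by -0.059, and this difference was -0.081 to -0.025 when single libraries were left out, the last value without tranilast replicate 3. Genes are not replicates, so the difference was not tested.

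Summed over genes, large-subunit counts were 1.86, 1.88, 1.91 and 1.87 times small-subunit counts in the control libraries and 1.79, 1.85, 1.80 and 1.86 times in the tranilast libraries. The highest tranilast library reached almost the lowest control library without passing it. The mean ratio was 1.88 ± 0.0205 in control and 1.83 ± 0.0362 in tranilast libraries (SD, n = 4 each). This ratio does not depend on scaling between libraries. The symbol misplaces a few proteins: Mrps30 (mL65) and Mrps18a (mL66) sit in the large subunit and Mrps36 (Kgd4) is a subunit of the 2-oxoglutarate dehydrogenase complex. With subunits set by position the ratio was 2.17 ± 0.0157 in control and 2.09 ± 0.0334 in tranilast libraries, with a wider gap between the groups. As a share of all counts, members made up 0.306% ± 0.00713 of control counts and 0.304% ± 0.00455 of tranilast counts.

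**Figure D4:**
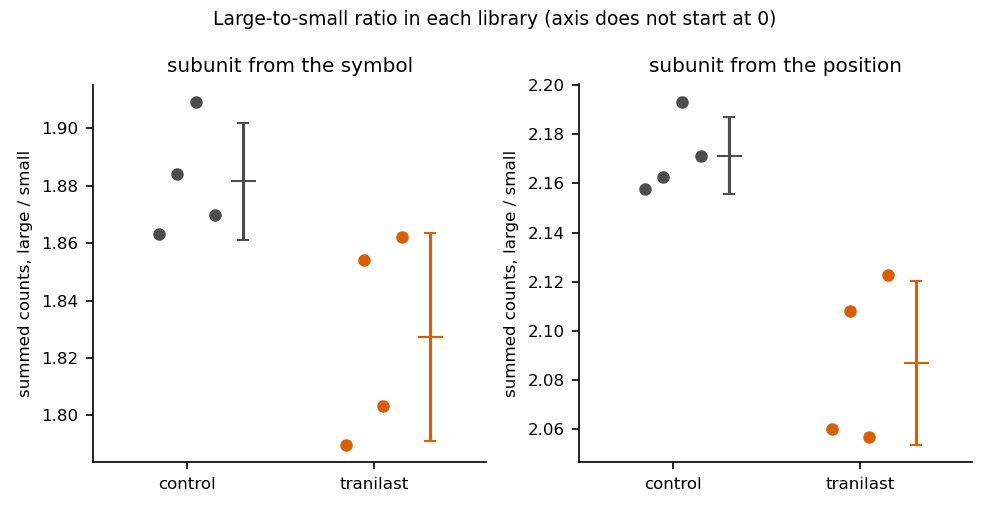
Summed counts of large-subunit genes divided by those of small-subunit genes in each library (points, with mean ± SD of 4 libraries), with subunits taken from the symbol (left) and from the position in the ribosome (right); axes do not start at 0. By symbol the means are 1.88 and 1.83, by position 2.17 and 2.09, and the groups do not overlap in either panel.

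Selected members were also counted by their site in the ribosome. Of all genes tested, 28.8% fell and 28.2% rose. Of 6 central protuberance genes, 3 fell (Mrpl18, Mrpl38 and Mrpl40) and 0 rose. Of 5 tunnel-exit genes, Mrpl45, which tethers the ribosome to the inner membrane, and Mrpl47 fell, Mrpl24 rose, and Mrpl22 and Mrpl23 did not pass the test. At the peptidyl transferase centre and the large-subunit core, Mrpl3 fell (-0.22) while Mrpl2, Mrpl16 and Mrpl27 did not pass (0.032, 0.044 and -0.12). In the small-subunit head Mrps7 and Mrps10 fell and Mrps9 and Mrps14 did not pass. Of 4 genes on the small-subunit platform, 1 fell (Mrps11) and 1 rose (Mrps6). None of 3 genes at the mRNA entry and decoding site (Mrps5, Mrps12 and Mrps24) or of 3 body genes (Mrps15, Mrps16 and Mrps17) passed. With library size alone or FPKM, 1 gene at each of these sites was called higher. With GC and length trends removed, 1 gene at the decoding site was called lower. With library size alone the falls of Mrpl11, Mrpl38, Mrpl3, Mrpl45, Mrpl47, Mrps7 and Mrps11 were lost (adjusted p 0.071 to 0.255). Those of Mrpl18, Mrpl40 and Mrps10 were not. The sites were set from known structures after member values had been seen, their genes are named outside the rule for named genes, the lists are not complete, and no site was tested.

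Proteins shared with bacteria and mitochondria-specific proteins were also counted. Of 46 shared members, 15 fell (32.6%, close to the 28.8% of all genes) and 3 rose (median -0.092), and of 31 mitochondria-specific members, 15 fell (48.4%) and 0 rose (median -0.13). The difference between both kinds was not tested. With library size alone these counts were 6 lower and 6 higher for the shared and 7 lower and 4 higher for the mitochondria-specific members, and the shared median was 0.024. Across the 78 members the log2 fold change had a Spearman correlation of -0.059 with transcript length, 0.044 with GC content and -0.061 with mean FPKM, given as a description over genes that share libraries and depth.

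Levels per length, in deposited FPKM, spanned 15.4-fold. Mrpl42 (mL42, 92.3 FPKM as the mean of 8 libraries), Mrpl17 (bL17m, 92.1) and Mrpl30 (uL30m, 81.4) were the highest and Mrps16 (bS16m, 5.99) and Mrpl47 (uL29m, 6.22) the lowest. Mrpl42 and Mrpl17 did not differ beyond their spread. The median member was at 27.6 FPKM in the large and 27.7 FPKM in the small subunit. Mrpl30 fell from 65.1 ± 3.47 to 57.1 ± 2.53 CPM (log2 fold change -0.19, adjusted p = 0.00398), a call lost with library size alone (adjusted p = 0.223). Mrpl42 fell from 63.5 ± 3.06 to 57.9 ± 2.87 CPM (-0.13, adjusted p = 0.032), with overlapping groups, and the call was lost with upper-quartile factors, library size alone and FPKM (0.290 to 0.791) and without control replicate 2, 3 or 4 or tranilast replicate 1, 2 or 3 (0.052 to 0.114). Mrpl17 was at 82.9 ± 1.82 and 78.2 ± 1.503 CPM (-0.084) and did not pass (adjusted p = 0.0778), although its groups did not overlap, and its difference turned to 0.032 with library size alone and 0.042 with FPKM.

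The 3 Mrps18 paralogs descend from 1 bacterial protein and occupy different places. Mrps18c (bS18m), which holds the bacterial position, was at 17.0, 21.1, 19.3 and 18.6 CPM in control and 17.5, 17.9, 18.7 and 18.1 CPM in tranilast libraries, with overlap (log2 fold change -0.074, SE 0.0828, adjusted p = 0.464). Mrps18b (mS40) was at 46.8 to 54.7 CPM in control and 42.3 to 48.9 CPM in tranilast libraries, with overlap, and fell (-0.16, SE 0.0592, adjusted p = 0.0327). That call was lost without control replicate 2 or 3 or tranilast replicate 3 or 4 (0.083 to 0.114), with the 3 scalings named for Mrpl42 (0.221 to 0.783) and with GC and length trends removed (0.053). Mrps18a (mL66) was at 37.2, 33.8, 35.2 and 36.6 against 34.8, 32.1, 31.1 and 32.4 CPM and did not pass (-0.13, adjusted p = 0.071), with a call gained with GC and length trends removed (0.020) and without control replicate 2 (0.047) or tranilast replicate 1 (0.046). Their order by level per length was Mrps18b (46.3 FPKM), Mrps18a (38.7) and Mrps18c (29.2). The difference between paralogs in response was not tested. Mrps36 had a log2 fold change of -0.063 (adjusted p = 0.652), and Mrpl58, a large-subunit protein with peptidyl-tRNA hydrolase activity, 0.059 (adjusted p = 0.557).

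Mitoribosomal proteins with other symbols showed both directions. Of 5, 3 fell (60%, against 28.8% of all genes), 1 rose (20%, against 28.2%) and 1 did not pass. Gadd45gip1 (mL64) fell from 28.8 ± 1.44 to 21.6 ± 1.08 CPM (log2 fold change -0.41, adjusted p = 5.7e-05). Ptcd3 (mS39), which guides mRNA to the small subunit, fell by 0.27 on the log2 scale (adjusted p = 0.0001), and Chchd1 (mS37) by 0.29 (adjusted p = 0.00838). Dap3 (mS29), the GTP-binding protein of the small-subunit head, rose from 84.4 ± 4.27 to 93.2 ± 2.16 CPM (0.14, adjusted p = 0.00861), and Aurkaip1 (mS38) had -0.15 (adjusted p = 0.0751), with a call gained without tranilast replicate 1 (0.037) or 4 (0.049). The call of Chchd1 was lost with library size alone (0.096), with FPKM (0.102 and 0.101) and with GC and length trends removed (0.111), the last of which also ended the call of Dap3 (0.072).

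Genes that assemble the mitoribosome were also counted. Of 29 assembly factors, 8 rose (27.6%, near the 28.2% of all genes), 4 fell (13.8%, against 28.8%) and 17 did not pass the test, with a median log2 fold change of 0.075. Rpusd3, a pseudouridine synthase family protein, was low and rose from 1.71, 3.06, 2.74 and 2.44 CPM to 4.26, 4.63, 4.79 and 4.11 CPM (0.83, SE 0.198, adjusted p = 0.00147). Nsun4, an rRNA methyltransferase of the small subunit that acts with Mterf4 in joining the subunits, rose from 15.7, 14.7, 14.0 and 12.6 to 22.6, 20.2, 17.8 and 23.3 CPM (0.56, SE 0.0990, adjusted p = 9.7e-05). In both genes every tranilast library was above every control library. Mterf4 itself, named for this partnership after its value was seen, rose by 0.52 on the log2 scale (adjusted p = 0.00165). Rcc1l, a guanine exchange factor in assembly, fell by 0.23 (adjusted p = 0.00153) and Rbfa, a small-subunit maturation factor, by 0.21 (adjusted p = 0.0183). The falls of both were lost with library size alone and FPKM, where 0 assembly factors were called lower and 12 or 13 higher. The call of Rbfa was also lost with upper-quartile factors (adjusted p = 0.106) and without control replicate 2 or 3 or tranilast replicate 3 (0.053 to 0.074).

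**Figure D5:**
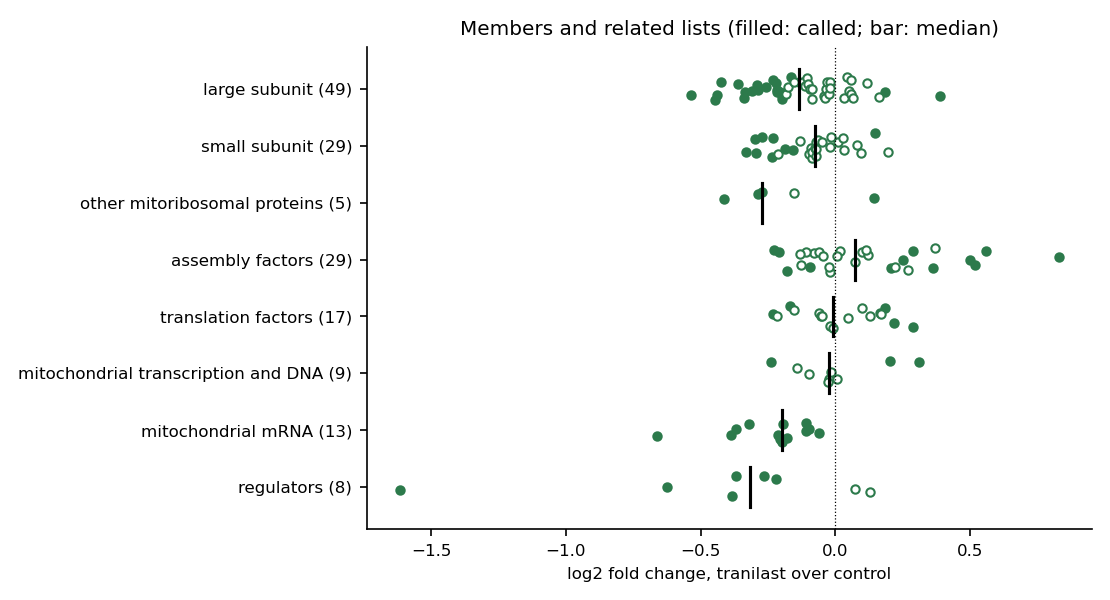
Log2 fold change, tranilast over control, of each tested gene (points, filled where the test was passed) in the large and small subunit and in 6 related lists, with list sizes in brackets and a bar at the median. Assembly factors have a median of 0.075, against -0.13 and -0.074 for the subunits, and regulators include the lowest point, Myc at -1.62.

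Translation factors were mixed. Of 17, 4 rose (23.5%, against 28.2% of all genes), 2 fell (11.8%, against 28.8%) and 11 did not pass, with a median of -0.0069. Mrrf, the ribosome recycling factor, rose from 17.6, 18.6, 18.7 and 17.8 to 23.3, 22.4, 21.5 and 21.7 CPM (log2 fold change 0.29, adjusted p = 0.00246), and Taco1, an activator of mt-Co1 translation, rose by 0.22 (adjusted p = 0.0351). Gfm1, the translocase of elongation, fell from 118.7 ± 5.28 to 101.1 ± 3.74 CPM (-0.23, adjusted p = 0.00013) and Guf1, its back-translocating relative, by 0.17 (adjusted p = 0.0348). The fall of Gfm1 was lost with FPKM (adjusted p = 0.068), that of Guf1 with every scaling but RLE (0.085 to 0.518) and without control replicate 3 or 4 or tranilast replicate 2, 3 or 4 (0.072 to 0.138), and the rise of Taco1 with DESeq2 (0.069), with no filter (0.079) and without control replicate 2 or 3 or tranilast replicate 2 or 4 (0.068 to 0.090). Of 9 genes of mitochondrial transcription and DNA maintenance, 2 rose (22.2%, against 28.2% of all genes) and 1 fell (11.1%, against 28.8%). Tefm, the elongation factor, rose by 0.31 (adjusted p = 0.035) and Tfb2m, the initiation factor, by 0.20 (adjusted p = 0.027). Ssbp1, the single-strand DNA binding protein, fell by 0.24 (adjusted p = 0.00052). The call of Tefm was lost with DESeq2 (0.050) and without control replicate 1 or 3 or tranilast replicate 1, 2 or 4 (0.057 to 0.114), and that of Tfb2m without control replicate 2 or 3 or tranilast replicate 3 or 4 (0.052 to 0.093). Polrmt, Tfam, Polg and Twnk did not pass (-0.022, -0.096, -0.016 and -0.026).

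All 13 protein-coding genes of mitochondrial DNA, whose mRNAs the mitoribosome reads, were called lower (100%, against 28.8% of all genes). Their median log2 fold change was -0.20, and they ranged from -0.062 for mt-Co3 to -0.66 for mt-Atp8. For 9 of the 13 the groups did not overlap, with tranilast below control, against 25.2% of all genes. The count of calls depended on scaling, with 8 lower and 1 higher with library size alone. It was 5 or 6 lower with FPKM and 5 lower with GC and length trends removed. The libraries were made from poly-A RNA, and the 2 mitochondrial rRNAs were not analysed here.

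Nuclear factors known to act on mitochondrial genes were lower in several cases. Of 8 regulators tested, 6 fell (75%, against 28.8% of all genes), 0 rose (against 28.2%) and 2 did not pass. The list is short and was chosen with earlier results of these data known. Nrf1, nuclear respiratory factor 1, fell from 52.1, 51.4, 49.4 and 48.6 to 30.8, 31.8, 33.3 and 34.7 CPM (log2 fold change -0.62, SE 0.0542, adjusted p = 1.8e-08). Gabpa and Gabpb1, the DNA-binding and activating subunits of GABP, fell by 0.37 (adjusted p = 7.5e-08) and 0.38 (adjusted p = 4.6e-05), and Yy1 fell by 0.26 (adjusted p = 1.9e-06), all named after their values were seen because their letters were searched in the promoters. Myc, which was scarce, was at 1.78, 2.78, 3.01 and 1.74 CPM in control and 0.497, 0.869, 0.958 and 0.718 CPM in tranilast libraries (-1.62, SE 0.328, adjusted p = 0.00026). The groups did not overlap for any of the 6 that fell (25.2% of all genes had tranilast below control without overlap). With library size alone 6 regulators fell and 1 rose. Esrra and Ppargc1b did not pass, and Ppargc1a, a coactivator of these factors, had a mean of 0.018 CPM in each group and was not tested. Whether these factors had a part in the differences of the members was not tested.

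Neighbours on the chromosome did not always follow the members. A gene starting on the other strand within 1000 bases was found for 23 members, and 22 partners were tested. Of 8 members that fell and had such a partner, 4 partners fell, 2 rose and 2 did not pass. Of all 22 tested partners, 8 fell and 7 rose, and of all genes tested 28.8% fell and 28.2% rose. Whether partners followed the members was not tested. Ncapd2, a condensin subunit gene whose start lies 100 bases from that of Mrpl51 as annotated in GENCODE M21, fell by 0.89 on the log2 scale (adjusted p = 2.8e-12), whereas Apba3, 26 bases from Mrpl54, rose by 0.20 (adjusted p = 0.0285, lost with GC and length trends removed). These 2 pairs were chosen after their values were seen. Exon bases were shared with another gene of the table for 22 members. Without them, 23 of 56 members fell and 1 rose, with medians of -0.17 in the large and -0.085 in the small subunit.

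Cytosolic ribosomal protein genes gave like counts of calls on the reported scale. Of 79, 29 were called lower (36.7%, against 28.8% of all genes) and 4 higher (5.06%, against 28.2%), with a median of -0.081. The groups did not overlap for 11 of the 79, against 27 of the 78 members and 49.8% of all genes. With library size alone 0 cytosolic genes were lower and 27 higher, where members were split into 13 lower and 10 higher.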

How the data were processed

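RNA was measured by poly-A RNA-seq in 8 mouse libraries labelled as liver, 4 control and 4 with tranilast. The authors deposited estimated counts per gene, not all whole numbers, beside FPKM per gene computed by them. The aligner, counter, strand setting and genome build are not given in the sources used here. Coordinates of promoters are from RefSeq on GRCm38.p6, and exons, lengths and GC content from GENCODE M21, matched by gene identifier. The members and the lists were chosen with earlier results of these data known.

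Counts were rounded and tested with edgeR 4.0.16 (R 4.3.3): filterByExpr by group, TMM factors, quasi-likelihood test of tranilast against control, Benjamini-Hochberg adjustment over all 10770 genes tested, and a call at an adjusted p under 0.05. The code was checked with a self-test. CPM values are counts divided by the TMM-scaled library size in units of 1e+06; errors are SD over 4 libraries, and SE is that of the log2 fold change. Beside it an exact two-sided permutation test on log2(CPM + 0.1) was run, which with 4 against 4 libraries can give 0.0286 at the smallest, reached by 27 members, those whose groups do not overlap. Alternatives used DESeq2 1.42.0, limma 3.58.1 (voom, and log2 FPKM with 1 or 0.1 added), RLE, upper-quartile and library-size scaling, other filters, an adjusted p under 0.01, a replicate block, GC and length trends removed and each library left out; leaving out members with shared exons and medians relative to all genes were added after seeing the data. The ribosome sites, the promoter letters and the comparison with neighbouring genes were also chosen after seeing the data.

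Named genes were: members called, with no overlap and a mean count of at least 50, the 8 highest (2 existed) and 8 lowest; the Mrps18 paralogs; the 5 proteins with other symbols; Mrps36 and Mrpl58; the 3 members with the highest FPKM; any member not tested (0); and of the assembly, translation, transcription and regulator lists the 2 highest and 2 lowest called. Depth gave each member 135 counts or more in every library. No set test was run.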

Additional observations from a re-analysis of the deposited data

Results flagged for a closer look

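In 2 of 76 groups of 4 libraries checked, 1 library lay far from the other 3; chance alone gives about 1 in 20 groups. For Mrpl51, tranilast replicate 1 was at 34.7 CPM and the other tranilast libraries at 38.9 to 39.1 CPM. For Mrpl42, control replicate 1 was at 59.0 CPM and the other control libraries at 64.6 to 65.7 CPM. Without the first of these libraries the log2 fold change of Mrpl51 was -0.30, and without the second that of Mrpl42 was -0.17.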

How the results depend on the processing

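With upper-quartile factors the subunit medians were -0.0661 (large) and -0.0068 (small). With library size alone 10 members were higher and 13 lower, with medians of -0.0168 and 0.0427. With log2 FPKM and 1 or 0.1 added 8 were higher and 11 lower, with large-subunit medians of -0.0303 and -0.0316 and small-subunit medians of 0.0316 and 0.0331. With GC and length trends removed the small-subunit median relative to all genes was -0.0459. Without members that share exon bases, 1 member was higher, the large-subunit median was -0.17 and relative to all genes -0.18. The large-to-small ratio, tranilast minus control, was -0.0544, and it was -0.0843 with subunits by position and -0.0992 with summed FPKM. Leaving out single libraries gave 5694 to 5909 calls over all genes, 2 to 3 members higher, 26 to 33 lower, a large-subunit median of -0.17 to -0.11, a small-subunit median of -0.11 to -0.068, a difference between them of -0.081 to -0.025, medians relative to all genes of -0.18 to -0.13 and -0.11 to -0.079, and a ratio difference of -0.0660 to -0.0418. Genes that did not pass changed sign in some settings: Mrps36 with upper-quartile factors (0.0042), library size alone (0.0537), FPKM with 1 or 0.1 added (0.0412 and 0.0429), GC and length trends removed (0.0523) and on leaving out single libraries (-0.119 to 0.0218, the sign changing without control replicate 2), Mrpl17 with library size alone (0.0324) and FPKM with 1 or 0.1 added (0.0419 and 0.0423), and Mrps18c with library size alone (0.0427), FPKM with 1 or 0.1 added (0.0368 and 0.0381) and GC and length trends removed (0.0185). The cause was not tested. Of 739 values of 37 named genes under 20 settings, 640 kept direction and call, 80 lost the call, 6 gained it and 13 changed sign. The replicate number did not pair samples: libraries of one number had correlations of their deviations from -0.056 to 0.11, and none correlated best with its own number. The replicate block gave 6009 calls, 2 members higher and 30 lower, with medians of -0.13 and -0.072, and among named genes it ended the calls of Mrps6 (adjusted p = 0.0574), Guf1 (0.059) and Taco1 (0.0513), leaving 3 translation factors higher and 1 lower. Depth was at least 135 counts per member and library, which limits the smallest differences that could be called; intervals cover counting and library spread only.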
